A study of Rattus norvegicus with 8 samples.

Results

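The cytosolic ribosomal protein genes were followed across 8 samples of rat liver cells cut out by laser microdissection (LMD). Members were all probes of the array whose gene name is that of a protein of the large subunit (Rpl), the small subunit (Rps), the stalk (Rplp0, Rplp1 and Rplp2) or Rpsa. This rule, which uses names and no measured value, found 85 of 36174 gene names on the array, with 204 of its 45598 probes, and of the 85 52 belong to the large subunit with its stalk and 33 to the small subunit. All animals were F344 rats given retrorsine (Ret), an alkaloid that blocks division of hepatocytes, and partial hepatectomy (PH). Mature hepatocytes (MHs, n = 2) and clusters of small hepatocyte-like progenitor cells (SHPCs, n = 3), the small cells that expand in such livers, came from control livers. A further 3 samples were SHPC clusters from livers that had received bone marrow-derived mesenchymal cells (BM-MCs) through the spleen. The BM-MCs were primary cultured cells, not purified stem cells, and clusters were recognised by their look in hematoxylin-stained sections. The labels give the DPPIV+ strain for every sample, whereas the methods describe DPPIV-negative female recipients and DPPIV+ donors. Which animal each sample came from is given in neither, and the p-values therefore speak of variation among these samples, part of which may be technical.

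Each ribosome carries a single copy of nearly all of these proteins, and their mRNAs are among the most abundant of a growing cell. The mRNAs of vertebrate ribosomal proteins begin with a run of pyrimidines, the terminal oligopyrimidine (TOP) motif, through which mTOR and Larp1 control how strongly they are translated. A hybridisation signal measures the mRNA and not its translation. Some ribosomal proteins have roles outside the ribosome, such as Rpl5 and Rpl11, which bind the p53 inhibitor Mdm2. In the regenerating liver, hepatocytes make ribosomes before they divide.

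The start of the transcript is shown for 8 members to which the values below return, 4 core proteins (Rps2, Rplp0, Rpl39, Rps4x) and 2 pairs of a core protein and its paralog. Each window of 30 bases is from RefSeq (GRCr8), runs 5′ to 3′ on the gene's strand and has the annotated start base right after its middle. Capitals mark the part, inside the window, of an unbroken run of C and T of 5 or more bases that reaches the start or a base up to 2 away.
Rps2 (chr10:14251833-14251862, + strand): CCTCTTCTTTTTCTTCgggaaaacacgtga
Rplp0 (chr12:46718376-46718405, - strand): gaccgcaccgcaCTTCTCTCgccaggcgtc
Rpl39 (chrX:121195882-121195911, - strand): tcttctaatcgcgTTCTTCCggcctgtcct
Rps4x (chrX:71342907-71342936, - strand): tccagcgcgcgcagCCTCCgaccctaattt
Rpl22 (chr5:168117946-168117975, + strand): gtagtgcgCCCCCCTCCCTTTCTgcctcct
Rpl22l1 (chr2:113683181-113683210, + strand): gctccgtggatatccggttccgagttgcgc
Rps27 (chr2:177964592-177964621, - strand): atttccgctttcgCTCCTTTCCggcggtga
Rps27l (chr8:76443643-76443672, + strand): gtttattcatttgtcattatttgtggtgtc

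The core proteins shown carry the run and both paralogs shown lack it, but this is no rule for the members. The paralog Rps4y2 has a run of 8 bases, and the core members Rps6 and Rpl5 (2 bases each) and Rpl11 and Rps19 (3 bases each) fall short of the 5 required. RefSeq promoters of 300 bases were found for 68 of the 85 members (69 starts). A run of this kind stood at 66.7% of the member starts and at 20.5% of all 33469 starts in the table, with a median run of 9 bases in members and 2 in all. Of other short words, counted on either strand of the 300 bases, CTTCCG stood in 55.1% of member promoters and 16.6% of all, CTCTTT in 50.7% and 23.5%, ATGGCG in 31.9% and 9.98%, and CACGTG in 7.25% and 6.42%. These are descriptions of sequence, and CTTCCG and CTCTTT can overlap the run itself.

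Levels are log2 signals minus the 75th percentile of the same array's log2 signals, so that 0 stands for a signal equal to that percentile and 1 for double it. The 8 arrays lay on 1 slide, with both MH samples and control SHPC replicates 1 and 2 in the first row and control SHPC replicate 3 and all SHPCs with BM-MCs in the second row, so that position and transplantation largely coincide. Between 57.05% and 61.5% of spots were well above background per array and no spot was saturated. All 10 hepatocyte markers were above background, and their summed linear level lay between 859 and 1108 in all samples. By gene, 8 were higher and 2 lower in control SHPCs than in MHs, with log2 differences from -1.23 to 0.92. Of the member probes, 200 passed the filter on dim signals, and all of these were above background on each of the 7 arrays with complete marks. The other 4 were the single probes of Rpl3l, a muscle paralog of Rpl3, and Rpl39l, a testis paralog of Rpl39, and a probe each of Rpl28 and Rpl36a, so that 83 members were measured. On 69 member probes, printed in 10 spots each, the median SD between spots of 1 array was between 0.039 and 0.043.

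Ribosomal protein mRNAs took up 11.03% and 10.98% of the summed signal in MHs, 12.36%, 12.82% and 11.19% in control SHPCs, and 11.1%, 11.08% and 11.53% in SHPCs with BM-MCs. Control SHPC replicates 1 and 2 were the highest and control SHPC replicate 3 lay among the samples of the other groups. To give every gene the same weight, each gene was centred on the mean of its 3 group means and the 83 genes were averaged. This mean level was 0.010 and -0.081 in MHs, 0.12, 0.17 and 0.0074 in control SHPCs, and -0.16, -0.039 and 0.0041 in SHPCs with BM-MCs. Control SHPCs were above every SHPC sample with BM-MCs, though replicate 3 of each group differed by little. As group values this was -0.035 ± 0.065 (SD, n = 2) in MHs, 0.099 ± 0.083 (SD, n = 3) in control SHPCs and -0.064 ± 0.084 (SD, n = 3) in SHPCs with BM-MCs. Of the 83 genes, 48 had their highest value in control SHPC replicate 2 and 50 their lowest in BM-MC replicate 1, while the SD over genes within a sample was between 0.092 and 0.16. In bulk samples of this kind, fewer cells of a type and less RNA per cell cannot be told apart.

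**Figure D1:**
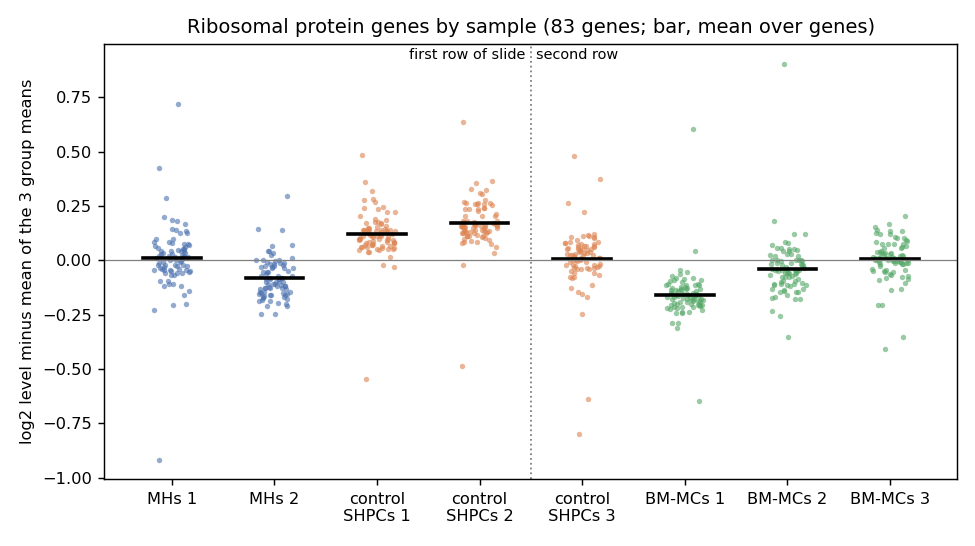
Log2 level of 83 ribosomal protein genes in each of the 8 samples, each gene minus the mean of its 3 group means (points, genes; black bars, mean over genes; dotted line, border between the rows of the slide). The bars of control SHPC replicates 1 and 2 stand highest, at 0.12 and 0.17, and that of BM-MC replicate 1 lowest, at -0.16.

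The first comparison asks whether SHPCs of livers that received BM-MCs differ from control SHPCs. Most ribosomal protein genes had slightly lower values with BM-MCs, and no member passed the test. The median log2 difference over the 200 member probes was -0.17 (0.888-fold), against 0.018 over all 23034 probes tested, and the middle 50% of the member probes lay between -0.22 and -0.13. The members' median minus that of all probes was -0.19, and it was -0.071 with the row of the slide as a block, -0.066 with quantile normalization, -0.044 with normexp background correction and quantile normalization together on 7 arrays, and -0.30 with no filter on dim probes. The median standard error of a member's difference was 0.12. By limma with Benjamini-Hochberg adjustment, 0 of 200 member probes were called, against 0.0217% of all probes (5 of 23034, each higher). At an unadjusted p under 0.05, limma gave 12 member probes lower and 1 higher, against 16.6% of all probes in either direction. At the same threshold the methods' t-test gave 47 lower and 1 higher (24% of members, against 15% of all probes), and 0 after Benjamini-Hochberg adjustment. A negative sign was found for 195 member probes, or 97.5%, against 47.4% of all, and in 85 member probes (42.5%) every sample with BM-MCs lay below every control, against 11.7% of all. Of the members, 2 probes, or 1%, differed by more than 1.5-fold, against 12.4% of all probes.

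Small-subunit proteins held the lowest values. Rps2, which lines the channel where mRNA enters, was at 4.54, 4.53 and 4.64 in controls and at 4.13, 4.03 and 4.43 with BM-MCs, a log2 difference of -0.37 (standard error 0.14, adjusted p = 0.267 from limma). Here all controls were alike and BM-MC replicate 3 was the nearest to them. Rps4x, the X-linked form of a protein of the small subunit, was at 2.86, 2.68 and 2.76 in controls and at 2.49, 2.19 and 2.51 with BM-MCs (difference -0.37, adjusted p = 0.263 from limma). Rps14, a protein of the platform of the small subunit, had a log2 difference of -0.33 (adjusted p = 0.275 from limma), also without overlap between the groups, and of -0.19 within the second row of the slide.

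Of the stalk, to which the elongation factors bind, Rplp0 was at 7.09, 7.04 and 6.97 in controls and at 6.64, 6.75 and 6.87 with BM-MCs. The groups did not overlap and differed by -0.28 (standard error 0.11), for which limma gave an adjusted p = 0.294. Rplp1 and Rplp2 and Rpl12, at the base of the stalk, differed by -0.21, -0.16 and -0.22, and all 4 stalk members were lower. Rps6, the substrate of the S6 kinases, was at 5.08, 5.13 and 4.96 in controls and at 4.77, 4.8 and 4.86 with BM-MCs (difference -0.24, adjusted p = 0.307 from limma, and -0.15 within the second row). At the other end, Rpl19, Rpl30 and Rpl3, all of the large subunit, were at -0.014, -0.026 and -0.028. Their differences were far below their standard errors, and under quantile normalization they turned positive, at 0.072, 0.019 and 0.041.

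By shared role, the median log2 difference was -0.16 over 50 genes of the large subunit with the stalk and -0.18 over 33 of the small subunit, with 49 and 32 genes negative. It was -0.13 for 8 proteins of the peptide exit tunnel, -0.18 for 7 of the mRNA channel and decoding site and -0.20 for 9 genes mutated in Diamond-Blackfan anaemia. For Rpl5, Rpl11 and Rpl23, which bind Mdm2, it was -0.18, and for the 4 stalk members -0.21. For 6 paralogs of core proteins it was -0.23, and these include Rpl36al, which is outside the rule for members. No gene of these lists was called in either direction. Between genes with the C and T run at their start and genes without it, the medians were -0.17 (46 genes) and -0.16 (21 genes). No difference between lists was tested.

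**Figure D2:**
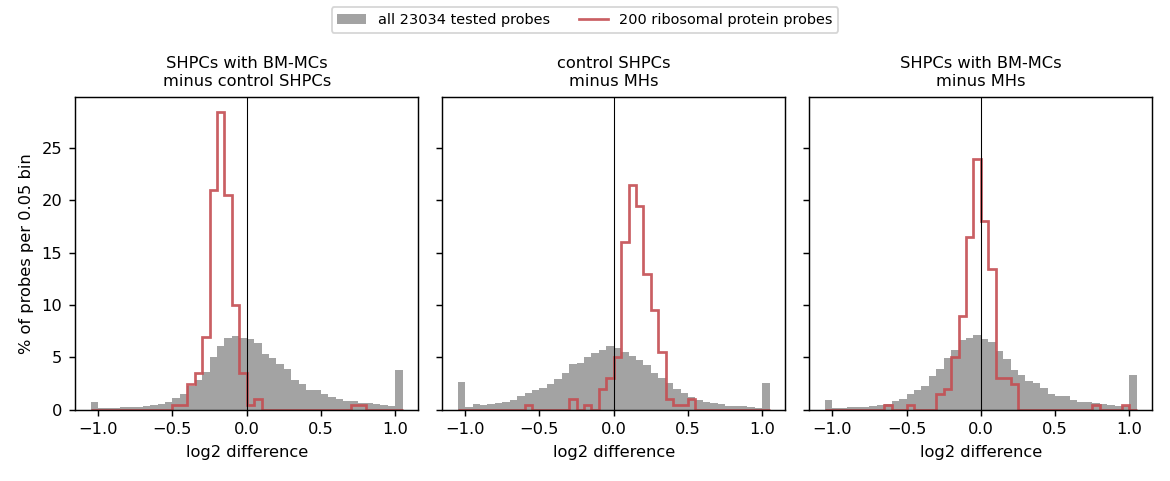
Distribution of log2 differences in 3 comparisons (x axis, log2 difference; y axis, percent of probes per bin of 0.05) for all 23034 tested probes (grey) and the 200 ribosomal protein probes (red line), with larger differences counted in the end bins. The ribosomal protein probes form a narrow peak, with medians of -0.17, 0.15 and -0.016.

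The second comparison, of control SHPCs with MHs of the same kind of liver, asks how SHPCs differ from hepatocytes blocked by Ret. Most members had slightly higher values in SHPCs, and again none was called. The median over the 200 probes was 0.15 (1.11-fold), against -0.032 over all probes, and 186 probes, or 93%, were higher against 46.2% of all. With no scaling between arrays the median was 0.064, and with no filter on dim probes the members' median exceeded that of all probes by 0.013 in place of 0.18. By limma, 0 member probes were called, against 1.14% of all probes in either direction (214 higher and 49 lower). At an unadjusted p under 0.05, limma gave 14 member probes higher and 1 lower, against 19.2% of all. The methods' t-test gave 42 higher and 0 lower without adjustment (21% of members, against 17.5% of all probes), and 0 after Benjamini-Hochberg adjustment. In 100 member probes (50%) all control SHPCs lay above both MHs, against 18.7% of all.

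Rps2 had the highest value. It was at 4.04 and 4.02 in MHs against 4.54, 4.53 and 4.64 in control SHPCs, and the groups differed by 0.54 (standard error 0.14), for which limma gave an adjusted p = 0.135. Every control SHPC sample was above both MHs, by far more than the 2 MHs differed. Rps4x (0.31), Rpl39 (0.31), a small protein of the exit tunnel, and Rpsa (0.31), also known as the laminin receptor, followed, with adjusted p from limma of 0.278, 0.267 and 0.288. Rpl39 was at 5.04 and 4.95 in MHs and at 5.31, 5.41 and 5.19 in control SHPCs. Rpsa was at 5.27 and 5.12 in MHs and at 5.52, 5.64 and 5.36 in control SHPCs. In each of these 3 genes the groups were apart.

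Of core members, Rpl19 had the lowest value. It was at 6.95 and 6.73 in MHs against 6.63, 6.70 and 6.42 in control SHPCs, a difference of -0.26 (adjusted p = 0.369 from limma), and its second probe also lay lower in every control SHPC sample. Rps26 (-0.091) and Rpl9 (-0.089) had overlapping groups. The other probe of Rps26 was at 0.078, and the mean of the 6 probes of Rpl9 was positive, at 0.075. Of the other genes named for their role, Rplp0 differed by 0.22, Rpl3 by 0.24, Rpl11 by 0.24, Rpl5 by 0.052, Rps6 by 0.075, Rps27a by 0.028 and Rps19, the gene most often mutated in Diamond-Blackfan anaemia, by -0.076. The small ones among these depended on single samples, and some on the probe. Over the probes of a gene, Rpl5 ran from 0.052 to 0.29, Rps27a from 0.028 to 0.18 and Rps19 from -0.076 to 0.12. With each sample left out, Rpl5 ran from 0.00034 without MH replicate 1 to 0.14 without control SHPC replicate 3, and Rps6 from 0.038 without control SHPC replicate 2 to 0.12 without control SHPC replicate 3.

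Between SHPCs with BM-MCs and MHs the direction of the members depended on the setting. With the 75th percentile the median was -0.016 against 0.0027 over all probes, 82 of 200 probes (41%) were higher against 50.4% of all, and limma called 0 member probes, against 0.33% of all. At an unadjusted p under 0.05, 1 member probe was higher and 1 lower by limma (13.3% of all probes), and 2 were higher and 6 lower by the methods' t-test (9.25% of all). The median was -0.21 with median scaling and 0.099 with the row of the slide as a block. The count of lower probes, 118, was 78 without MH replicate 1 or without BM-MC replicate 1 and 151 without BM-MC replicate 3. This comparison shares its samples with both others. The core values at the upper end included 0.22 for Rpl3, 0.17 for Rps2 and 0.14 for Rpl39, and the lowest were -0.29 for Rps26, -0.27 for Rpl19 and -0.25 for Rpl9, none of which passed (adjusted p from 0.367 to 0.667 by limma). Without BM-MC replicate 3, Rps2 was at 0.053 and Rpl39 at 0.060, and without MH replicate 1 Rpl19 was at -0.16.

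The paralogs behaved unlike each other. Rps27l, a paralog of Rps27 that p53 is known to induce, was at 4.84 and 4.71 in MHs, 4.39, 4.40 and 3.78 in control SHPCs, and 4.46, 4.38 and 4.01 with BM-MCs. It was lower in every SHPC sample than in either MH sample, with differences of -0.59 in control SHPCs and -0.50 with BM-MCs (adjusted p = 0.232 and 0.395 from limma). With the row of the slide as a block the difference with BM-MCs turned to 0.12, and without control SHPC replicate 3 that of control SHPCs was -0.38. Its core counterpart Rps27 differed by 0.14 and 0.077. Rpl22l1, the paralog of Rpl22, was at 1.78 and 1.67 in MHs, 2.02, 2.2 and 1.89 in control SHPCs, and 1.52, 1.73 and 1.93 with BM-MCs. It was 0.31 above MHs in control SHPCs and -0.31 with BM-MCs against control, where Rpl22 gave 0.15 and -0.15. Within the second row the difference of Rpl22l1 with BM-MCs was -0.17. Rpl7l1, a paralog of Rpl7, gave 0.24 and -0.24. Rpl36al, whose name falls outside the rule for members, gave 0.12 and -0.21. No test of a paralog against its core protein was made.

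Rpl10l and Rps4y2 varied most within groups. Rpl10l, a retrogene of Rpl10 known from testis, was at -0.76 and 0.30 in MHs, -0.39, -0.33 and 0.64 in control SHPCs, and 0.76, 1.06 and 0.36 with BM-MCs. Every array of the second row of the slide was above every array of the first. This held for 2 member probes, or 1%, against 4.93% of all, and the opposite split, every array of the second row below every array of the first, for 7 member probes, or 3.5%, against 3.61% of all. The 7 were probes of Rpl9, Rpl17, Rpl18, Rpl27a, Rpl37, Rps26 and Rps27a. The other probe that was higher in the second row was the dimmer of the probes for Rpl37a, which differed by 0.74 with BM-MCs against controls (adjusted p = 0.222 from limma, the lowest of all members), while the brighter Rpl37a probe differed by -0.21. Rps4y2, which the RefSeq table places on chromosome 4, was at 1.58 and 0.69 in MHs, 1.35, 1.5 and 0.07 in control SHPCs, and 0.22, 0.73 and 0.52 with BM-MCs. Control replicate 3 lay with the other arrays of the second row, and MH replicate 2, just below BM-MC replicate 2, was the single array of the first row among them. Its difference with BM-MCs, -0.48 (adjusted p = 0.55 from limma), became 0.42 within that row, and with each sample left out it ran from -0.94 without control replicate 3 to -0.22 without control replicate 2. The part of slide position in these values was not tested.

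**Figure D3:**
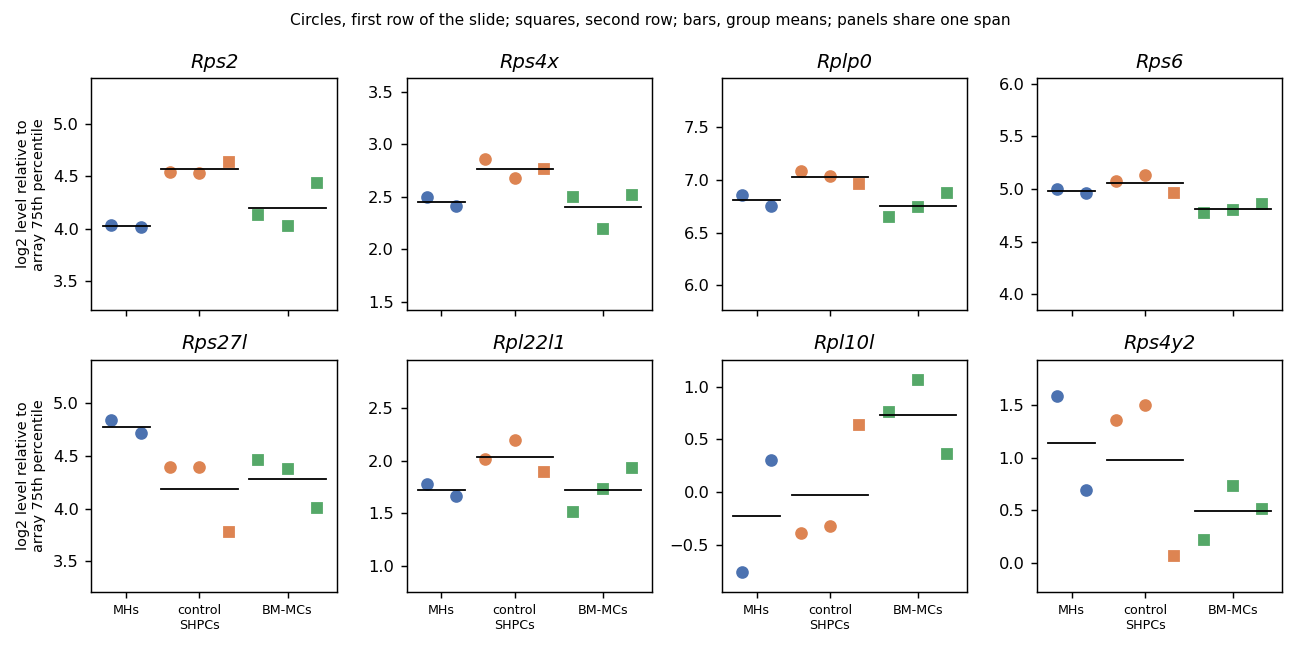
Log2 level relative to the array's 75th percentile for 8 members in each sample (circles, first row of the slide; squares, second row; bars, group means; colours, groups). Rps2 is higher in all control SHPCs than in any other sample, Rps27l is highest in MHs at 4.84 and 4.71, and Rpl10l is higher in every array of the second row than in any of the first.

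The same split was looked for in all members. Within the first row, control SHPC replicates 1 and 2 both lay above both MHs in 162 of 200 probes (81%), against 23.1% of all probes, and the median difference there was 0.19. Within the second row, control SHPC replicate 3 lay above all SHPCs with BM-MCs in 97 probes (48.5%), against 31.1% of all, and the median difference was -0.092. Control SHPC replicate 3 was below both other controls in 163 probes (81.5%), against 33.9% of all. The row and the transplantation cannot be told apart for control replicates 1 and 2. Without control SHPC replicate 3 the median with BM-MCs was -0.21, and without BM-MC replicate 1 it was -0.13.

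The median also moved with the scaling. With arrays set on their median in place of the 75th percentile it was -0.36 with BM-MCs against controls, where all probes moved to -0.17, and with quantile normalization it was -0.10. No limma setting called a member in any comparison. On simulated data at this size (3 samples against 3), 38% of 2-fold and 83% of 4-fold changes were recovered, and the members' median differences are well below a 2-fold change. The changed probes were drawn from all tested probes, so these rates are not those of the members. Within control SHPCs the median SD was 0.17 for all tested probes and 0.086 for members, and with BM-MCs 0.19 and 0.11.

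**Figure D4:**
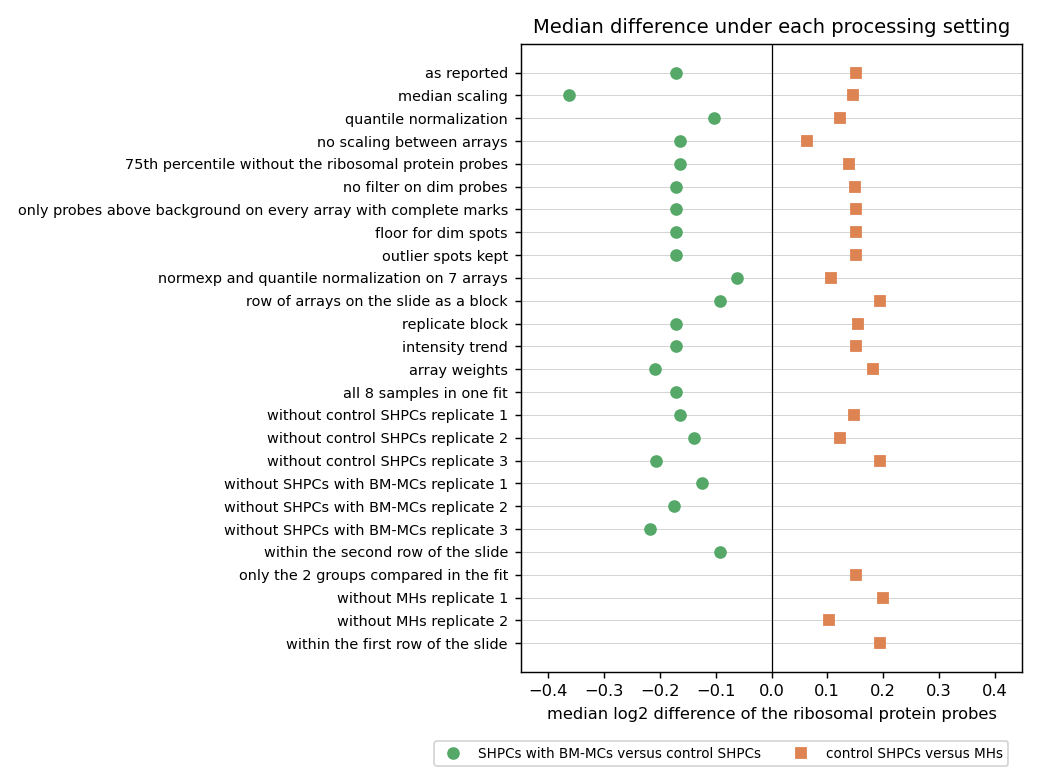
Median log2 difference of the ribosomal protein probes (x axis) under each processing setting (y axis) for SHPCs with BM-MCs against control SHPCs (circles) and control SHPCs against MHs (squares). Every circle is below 0 and every square above 0, from -0.36 to -0.062 and from 0.064 to 0.20.

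The values of several probes of a gene were compared. For 59 members with more than 1 tested probe, the median span between the probes' differences was 0.050 with BM-MCs against controls and 0.092 for control SHPCs against MHs, and probes of 3 and 8 genes differed in sign. With BM-MCs against MHs, where the members lay near 0, the median span was 0.087 and probes of 26 genes differed in sign. The largest spans were those of Rpl37a, at 0.95 with BM-MCs against controls and 0.91 against MHs. These probes are not independent, since 55 of 226 pairs of same-gene probes share at least 20 bases in a row. The array's annotation places 20 member probes, of 9 genes, on another chromosome than the RefSeq gene, so that they may read a processed pseudogene or a near copy, and their median was -0.20 with BM-MCs against controls, where the other members had -0.17. In control SHPCs against MHs they had 0.11 against 0.16, and with BM-MCs against MHs -0.061 against -0.013. Ribosomal protein genes have many such copies, and their split between genes is uncertain.

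Other genes of translation were set beside the members. Of 69 mitochondrial ribosomal protein genes tested, which are made in the cytosol but form the ribosome of mitochondria, 60 were lower with BM-MCs (median -0.16) and 56 higher in control SHPCs than in MHs (median 0.20), with 0 called by limma in either comparison. By sample their mean level was -0.076 and -0.083 in MHs, 0.082, 0.13 and 0.14 in control SHPCs, and -0.10, -0.056 and 0.048 with BM-MCs. Here control replicate 3 was as high as the other controls, unlike for the cytosolic members. Of 21 other TOP transcripts, such as Eef1a1 and Eef2, which carry tRNA and move the ribosome, 20 were lower with BM-MCs (median -0.12). Eef1a1 differed by -0.061, Eef2 by -0.12, Tpt1 by -0.24, Npm1 by -0.11 and Fau by -0.021. Gnb2l1, the small-subunit scaffold Rack1, was the lowest of them at -0.44 (adjusted p = 0.25 from limma). In control SHPCs against MHs, 13 of the 21 were higher and 8 lower (median 0.044), and the highest was Hnrnpa1 at 0.82 (adjusted p = 0.07 from limma).

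Of 30 initiation and termination factors, 24 were lower with BM-MCs (median -0.10), and in control SHPCs against MHs 16 were higher and 14 lower (median 0.053). Of 12 regulators of TOP mRNAs, 5 were lower and 7 higher with BM-MCs (median 0.082), and 8 were lower and 4 higher in control SHPCs against MHs (median -0.060). Tsc1 and Tsc2, which restrain mTOR, were 0.22 and 0.31 higher with BM-MCs and -0.27 and -0.25 in control SHPCs against MHs. Mtor was at -0.34 and 0.25, but it was dim (group means from -4.37 to -4.03) and its groups overlapped in both comparisons. Rptor and Mlst8 had the opposite signs to Mtor, at 0.12 and 0.11 with BM-MCs and -0.37 and -0.16 in control SHPCs against MHs. No gene of these lists was called by limma.

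**Figure D5:**
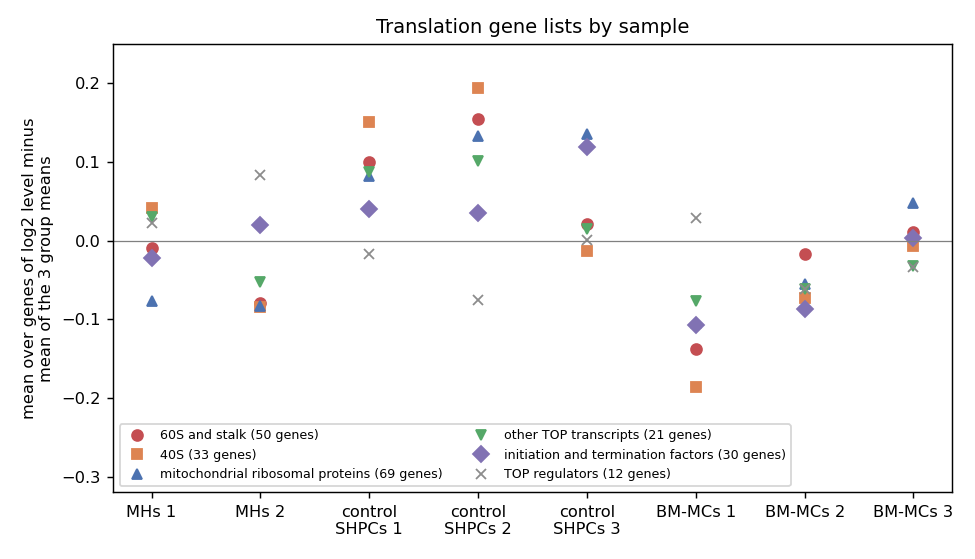
Mean over genes of the centred log2 level in each of the 8 samples for 6 lists of translation genes. Both subunits of the cytosolic ribosome are highest in control SHPC replicates 1 and 2 and lowest in BM-MC replicate 1, whereas mitochondrial ribosomal proteins are highest in control SHPC replicate 3, at 0.14.

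Cell division and cell type markers were measured in the same samples. Of 15 proliferation genes, limma called 9 higher in control SHPCs than in MHs, 7 higher with BM-MCs than in MHs and 0 between the SHPC groups, and it called 0 genes of any cell type list in any comparison. The summed linear level of the proliferation genes was between 2.66 and 3.41 in MHs, between 11.4 and 19.1 in control SHPCs and between 6.15 and 9.88 with BM-MCs. It was highest in control SHPCs, and above MHs in every sample with BM-MCs. That of 10 Kupffer cell and macrophage markers, all above background, was 90.0 to 96.1 in MHs, 46.4 to 67.3 in control SHPCs and 57.7 to 82.9 with BM-MCs. That of 7 erythroid markers was 72.3 in control SHPC replicate 3 and 10.5 to 27.9 elsewhere, with Epb42 not above background on any array. That of 7 granulocyte markers was 1.16 to 1.62 in control SHPCs and 0.387 to 0.507 with BM-MCs, while the MHs alone were at 0.414 and 1.53, with Camp, Elane, Mpo and Ngp not above background on any array. The summed level of 6 sinusoidal endothelial markers was 15.1 to 18.4 in MHs, 13.3 to 15.22 in control SHPCs and 15.26 to 17.2 with BM-MCs, so that the SHPC groups just failed to overlap. That of 6 biliary markers was 0.29 to 0.358 in MHs and higher in every SHPC sample, at 0.43 to 0.466 in controls and 0.426 to 0.549 with BM-MCs, with Krt7 not above background on any array. The summed level of 8 stellate cell and fibroblast markers was 8.68 to 9.09 in MHs, 7.41 to 8.06 in control SHPCs and 7.37 to 11.4 with BM-MCs. Such sums follow the brightest genes of a list. By gene, 5 of the 8 were higher and 3 lower in control SHPCs than in MHs (median log2 difference 0.091, range -1.47 to 1.12). The summed level of 10 lymphocyte markers was 3.36 to 4.01 in MHs, 3.56 to 3.89 in control SHPCs and 3.26 to 4.18 with BM-MCs, with Cd3e, Klrb1 and Ms4a1 not above background on any array. The part of these markers in the values of the ribosomal protein genes was not tested.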

How the data were processed

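The samples were hybridised to 1-colour Agilent rat arrays. The authors deposited the processed signal, an intensity that Agilent Feature Extraction (version 10.7 in the submitters' processing notes) had background-subtracted, with no scaling across arrays. Values came from the deposited value table, which equals the scanner files within a relative difference of 1.19e-06, because 1 scanner file (control SHPC replicate 2) ends after 20903 of 62976 features. The 75th percentile of an array's log2 signals was subtracted, outlier-marked spots were dropped and a probe's spots averaged. Probes above background on 3 or more of the 7 fully marked arrays entered limma 3.58.1 (R 4.3.3), with Benjamini-Hochberg adjustment over all of them (threshold 0.05). The comparison of both SHPC groups used their 6 samples, and those with MHs used all 8. A gene is given by its brightest tested probe. In each comparison the called members, the 5 highest and the 5 lowest were named, beside genes set by role. The dim Rpl37a probe, the probes split by slide row, Rplp1, Rplp2, Rpl12, Gnb2l1, Hnrnpa1, Tsc1, Tsc2, Mtor, Rptor and Mlst8 were named after their values were seen. Some genes that this rule would name are not reported here. RefSeq matched 193 of 204 probes by accession. The number of arrays limits the precision. The fit was tested on simulated data. Alternatives changed scaling, filter, background correction, slide row and samples. Members and lists were chosen with earlier results of these data known.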

Additional observations from a re-analysis of the deposited data

How the results depend on the processing

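No member was called by limma under any setting. Only the methods' t-test without adjustment made calls. With BM-MCs against controls it called 47 lower and 1 higher (24% of members, against 15% of all probes). In control SHPCs against MHs it called 42 higher (21% of members, against 17.5% of all). With BM-MCs against MHs it called 6 lower and 2 higher (4% of members, against 9.25% of all). Whether the replicate numbers pair the samples is not known. Deviations from the group means correlated at 0.133, 0.0784 and 0.172 between same-numbered controls and BM-MC samples, and at -0.154 to 0.0817 between differently numbered ones. For same-numbered pairs with an MH sample they were between -0.129 and 0.0508. With a replicate block 0 member probes were called and Rps4y2 turned to 0.057 in control SHPCs against MHs.

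With BM-MCs against controls, the members' median was -0.36 with median scaling and -0.062 with normexp followed by quantile normalization (7 arrays, together called normexp here), and relative to all probes it was -0.066 with quantile normalization, -0.044 with normexp, -0.30 with no filter on dim probes, -0.071 with the row as a block and -0.071 within the second row (added after seeing the data). For control SHPCs against MHs it was 0.064 with no scaling between arrays, and relative to all probes 0.013 with no filter. With BM-MCs against MHs it was -0.21 with median scaling, -0.097 with no scaling and 0.099 with the row as a block, and relative to all probes 0.065 with quantile normalization, 0.066 with normexp, -0.21 with no filter and 0.15 with the row as a block. With each sample left out in turn, the median ran from -0.22 to -0.13 with BM-MCs against controls, from 0.10 to 0.20 for control SHPCs against MHs and from -0.059 to 0.034 with BM-MCs against MHs. The cause of these moves was not tested.

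Some single genes turned sign. With BM-MCs against controls, median scaling gave Rps27l -0.099, and array weights -0.0085. Quantile normalization gave Rpl19 0.072, Rpl3 0.041, Rpl30 0.019, Rps19 0.015 and Rps27 0.020. Normexp gave Rpl19 0.14, Rpl3 0.10, Rpl30 0.12, Rpl5 0.042, Rps19 0.041 and Rps27 0.034. The row as a block, and the second row alone, gave Rpl19 0.15, Rpl3 0.011, Rpl30 0.13, Rpl5 0.087, Rps19 0.054 and Rps4y2 0.42. The mean of the gene's tested probes gave Rpl19 0.019. For control SHPCs against MHs, quantile normalization gave Rps27a -0.0050, normexp Rpl5 -0.013, and no scaling Rpl5 -0.036, Rps27a -0.060 and Rps6 -0.013. The row as a block, and the first row alone (also added), gave Rpl10l -0.13, Rps19 5.7e-05 and Rps4y2 0.29, array weights Rpl10l -0.023 and Rps4y2 0.13, and the mean of tested probes Rpl9 0.075 and Rps19 0.041. With BM-MCs against MHs, median scaling gave Rpl39 -0.055 and Rps2 -0.029, and the row as a block Rpl10l -0.037, Rps27l 0.12 and Rps4y2 0.71. With each sample left out, values with BM-MCs against controls ran from -0.096 to 0.044 for Rpl19, -0.088 to 0.070 for Rpl3, -0.11 to 0.026 for Rpl30, -0.11 to 0.026 for Rps27 and -0.11 to 0.23 for Rps27l, and for control SHPCs against MHs from -0.33 to 0.73 for Rpl10l, -0.19 to 0.040 for Rps19, -0.011 to 0.070 for Rps27a and -0.61 to 0.29 for Rps4y2. With BM-MCs against MHs they ran from 0.43 to 1.49 for Rpl10l and -1.095 to -0.20 for Rps4y2. The count of lower member probes ran from 8 to 34 of 200 for control SHPCs against MHs. Of 1227 such values, 1138 kept their direction and side of the threshold and 64 turned sign. A further 13 passed by the methods' t-test without adjustment only, and 12 counts of negative member probes moved by over 1.5 times.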
